A study of Homo sapiens with 2 samples.

Results

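The main cluster of replication-dependent histone genes lies in 6p22, and the sites described here are all peak summits of ZMYND8 ChIP-seq between positions 26010000 and 27880000 of chromosome 6 (build hg19). ZMYND8 is a chromatin reader that recognises acetylated and methylated histone tails. It was mapped in mammospheres (floating sphere cultures) of MDA-MB-231, an established triple-negative breast cancer line, with 1 library from parental (wildtype) spheres and 1 from ZMYND8 knockout spheres. Both were grown in MammoCult medium and precipitated with the same antibody against ZMYND8. Whether the knockout line is a single clone is not given in the sources used here, and summit lists carry no transcript levels with which the knockout or the cell type could be checked. The span held 41 of the 46309 summits in the lists: 41 of 45924 parental summits and 0 of 385 knockout summits. The parental summits next to the bounds were at 25971904 (score 2.14) before the span and 28072762 (score 5.68) after it, against 26020986 (score 3.79) and 27860080 (score 2.14) as the first and last inside. Scores are −log10 p or q values of the authors' peak caller. With 1 library per genotype no difference has a replicate check, so no test across libraries was made, and every interval below is a 95% interval for counting error that treats summits as independent.

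Replication-dependent histone genes supply the core histones H2A, H2B, H3 and H4 and the linker histone H1 that package newly copied DNA. They are short genes without introns, they are transcribed mainly in S phase, and their mRNAs end in a stem-loop instead of a poly(A) tail. Many stand in divergent H2A and H2B pairs that share a promoter region. Transcription takes place in histone locus bodies, nuclear structures built around the coactivator NPAT.

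By gene order in RefSeq, the stretch from H1-1 to H4C8 holds 32 histone coding genes (5 of H1, 4 of H2A, 8 of H2B, 7 of H3 and 8 of H4) and 1 other coding gene, HFE, a regulator of iron uptake. The stretch from H2BC13 to H2BC17 holds 16 histone coding genes (1 of H1, 5 of H2A, 4 of H2B, 3 of H3 and 3 of H4) and no other coding gene. These stretches are taken as the genes of the dense parts of the cluster at 26.01 to 26.30 Mb and 27.77 to 27.88 Mb, an assignment by order and not by hg19 position. Between them RefSeq lists 5 more histone genes (H2BC11, H2AC11, H2BC12, H4C9 and H2AC12), 14 other coding genes and 98 of the 155 transfer RNA genes of chromosome 6. The other coding genes include the butyrophilin genes BTN3A2, BTN2A2, BTN3A1, BTN3A3, BTN2A1 and BTN1A1, the nucleosome-binding gene HMGN4 and the zinc finger genes ZNF322, ZNF391 and ZNF184.

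The promoter sequences below show what the histone classes of the cluster look like just before their start sites. Each is the stretch of 200 bases before the RefSeq start, 5′ to 3′ on the gene's strand, for the first gene of each class in map order that the promoter table holds, and for H4C8, which has summits at its start. Capitals mark the letters CCAAT (the CCAAT box, bound by NF-Y), TATAAA (the TATA box) and ATTTGCAT (the octamer, bound by OCT1), on either strand. Sequences and positions in this paragraph are from RefSeq on GRCh38.p14 and are not on the scale of the hg19 summits.
H1-1, chr6:26017788-26017987, minus strand: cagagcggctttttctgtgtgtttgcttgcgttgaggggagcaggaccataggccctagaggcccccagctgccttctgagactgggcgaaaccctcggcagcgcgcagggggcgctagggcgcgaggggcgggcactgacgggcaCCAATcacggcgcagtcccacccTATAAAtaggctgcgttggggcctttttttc
H2AC4, chr6:26033619-26033818, minus strand: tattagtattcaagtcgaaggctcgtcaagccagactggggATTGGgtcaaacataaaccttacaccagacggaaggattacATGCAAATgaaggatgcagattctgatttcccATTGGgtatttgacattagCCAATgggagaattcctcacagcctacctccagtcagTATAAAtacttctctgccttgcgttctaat
H2BC3, chr6:26043714-26043913, minus strand: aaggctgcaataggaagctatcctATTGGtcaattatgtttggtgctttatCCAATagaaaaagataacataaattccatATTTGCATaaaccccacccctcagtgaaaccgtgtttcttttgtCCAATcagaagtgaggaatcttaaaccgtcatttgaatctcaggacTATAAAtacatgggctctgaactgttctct
H3C1, chr6:26020251-26020450, plus strand: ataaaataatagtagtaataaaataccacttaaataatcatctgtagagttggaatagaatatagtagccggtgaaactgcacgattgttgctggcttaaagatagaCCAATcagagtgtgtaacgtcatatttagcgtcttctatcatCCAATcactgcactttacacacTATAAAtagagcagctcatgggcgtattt
H4C2, chr6:26027284-26027483, minus strand: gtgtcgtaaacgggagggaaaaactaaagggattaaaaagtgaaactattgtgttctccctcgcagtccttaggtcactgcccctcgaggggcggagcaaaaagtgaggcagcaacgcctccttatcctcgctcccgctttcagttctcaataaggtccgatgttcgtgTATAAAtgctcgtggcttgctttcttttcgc
H4C8, chr6:26285535-26285734, minus strand: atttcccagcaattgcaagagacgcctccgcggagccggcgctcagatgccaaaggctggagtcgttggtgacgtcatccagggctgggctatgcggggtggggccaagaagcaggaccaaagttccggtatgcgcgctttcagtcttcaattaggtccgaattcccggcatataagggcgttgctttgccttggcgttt
In these stretches the TATAAA nearest to the start began 31 bases before it in H1-1 and H4C2, 30 bases before it in H2AC4 and H2BC3, and 29 bases before it in H3C1. H2AC4 and H2BC3 each held 3 CCAAT boxes and 1 octamer. H4C8 held none of the 3 motifs as exact letters. Variants of a box were not searched for, so a variant TATA box in H4C8 is not excluded.

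Parental summits were denser in the parts where the histone genes are dense than in the stretch between them. The first dense part held 17 summits in 0.29 Mb, or 58.6 per Mb (exact Poisson interval 34.2 to 93.9). The second dense part held 5 in 0.11 Mb, or 45.5 per Mb (14.8 to 106.1), and the first part's density was 1.29 times that of the second (0.457 to 4.47), a difference within counting error. Together they held 22 summits in 0.4 Mb, or 55.0 per Mb (34.5 to 83.3). The 1.47 Mb between them held 19, or 12.9 per Mb (7.78 to 20.2). The density of the dense parts was therefore 4.26 times that of the stretch between them (exact conditional interval 2.198 to 8.31).

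**Figure D1:**
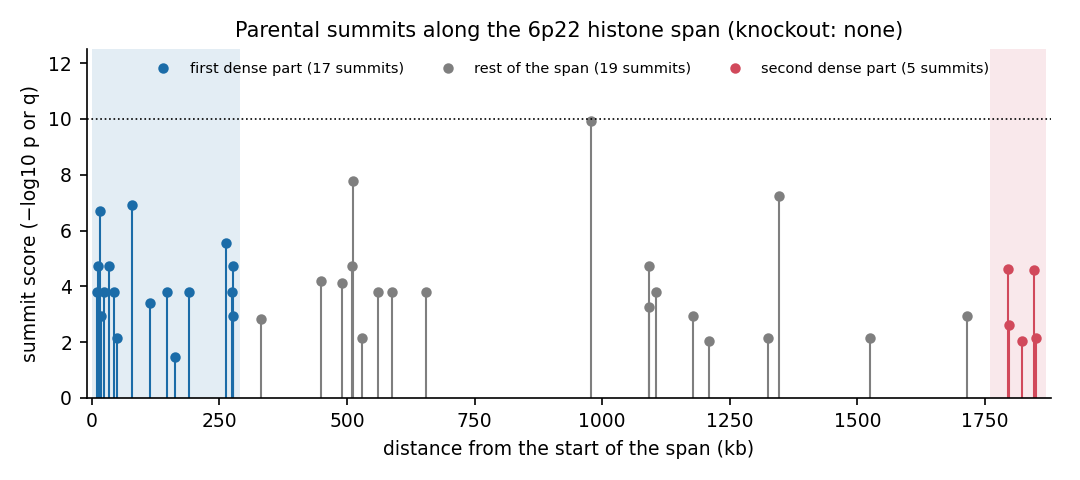
Each point and stem is 1 parental summit, placed by its distance in kb from the start of the span and by the score its authors gave it (−log10 p or q); shading marks the dense histone parts and the dotted line a score of 10. The 17 and 5 summits of the dense parts crowd at the ends, 19 are spread between them, none reaches 10, and the knockout list has no summit in the span.

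With all summits counted, the dense parts were denser than chromosome 6, its short arm and the flanks of the span, and the whole span was denser than chromosome 6 alone of these 3. With scores of at least 5 the dense parts did not differ beyond counting error from any of the 3, and the ratio to the short arm fell below 1. Chromosome 6 outside the span held 2565 parental summits, 15.2 per Mb, and the dense parts were 3.63 times as dense (2.27 to 5.51). The short arm outside the span was richer, with 29.1 per Mb, and the ratio of the dense parts to it was 1.89 (1.18 to 2.87). The 5 Mb on each side of the span held 25.1 per Mb, and the ratio to them was 2.19 (1.35 to 3.39). Only 3 summits of the dense parts scored at least 5. With that minimum the ratio was 1.63 (0.335 to 4.78) to chromosome 6, 0.823 (0.169 to 2.42) to the short arm and 1.10 (0.222 to 3.36) to the 5 Mb on each side. For the whole span the ratio was 1.45 (1.04 to 1.97) against chromosome 6 but 0.754 (0.539 to 1.03) against the short arm and 0.874 (0.612 to 1.22) against the 5 Mb on each side. The stretch between the dense parts was 0.853 times as dense as chromosome 6 (0.513 to 1.335), a difference within counting error. It was 0.515 times as dense as the flanks (0.305 to 0.821) and 0.444 times as dense as the short arm (0.267 to 0.696). Of all chromosome 6 summits 72.8% stood in runs of at least 2 with gaps of at most 10 kb. Summits are thus not independent, and all these intervals may be too narrow.

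**Figure D2:**
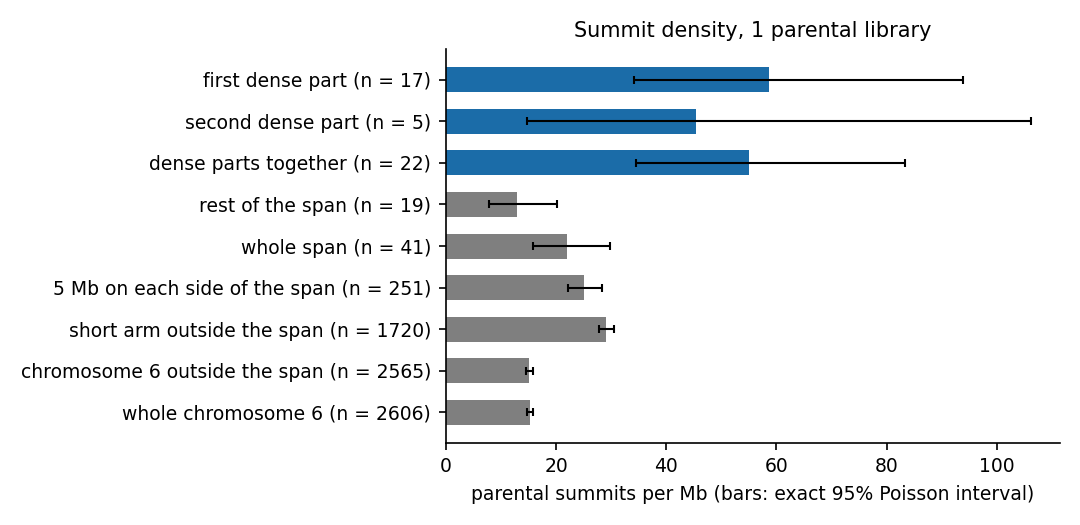
Bars give parental summits per Mb in parts of the histone span and in larger regions of chromosome 6, with exact Poisson intervals and the number of summits. The dense parts together (55.0 per Mb) lie above all other bars except that of the first dense part, and the stretch between them (12.9 per Mb) is the lowest.

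The same contrast appeared in the share of sequence with any summit. Of 40 bins of 10 kb in the dense parts 15 held a summit (37.5%), against 17 of 147 in the stretch between them (11.6%) and 9.01% of all 17112 bins of chromosome 6. The share was 15.8% on the short arm outside the span and 14.9% in the 5 Mb on each side. The fullest tile of 100 kb in the span, from 26000001 to 26100000, held 9 parental summits, and 66 of the 1712 tiles of the chromosome (3.86%) held at least as many. Of the 19 tiles that touch the span, 5 held no parental summit (26.3%), against 993 of all tiles of the chromosome (58.0%). The longest empty stretch between neighbouring summits of the span was 323.6 kb, from 26664143 to 26987757, and the longest on chromosome 6 was 3501 kb.

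Per gene the direction was the opposite. The dense parts held 0.449 parental summits per coding gene (22 summits, 49 genes, 0.281 to 0.680), against 2.61 (2.51 to 2.72) on chromosome 6 outside the span. The ratio was 0.172 (0.107 to 0.261). The first dense part held 0.515 per gene, the second 0.312, and the stretch between them 1.0. Coding genes numbered 122 per Mb in the dense parts and 5.80 per Mb on chromosome 6 outside the span. Histone genes are far shorter than most genes, and gene length was not taken into account.

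In the first dense part the summits formed short groups. In the first dense part the longest run with gaps of at most 10 kb held 5 summits from 26020986 to 26034338. Its width was 13.4 kb and its median score 3.79. Chromosome 6 had 115 runs with at least 5 summits and a longest run of 31. A run of 3 lay between 26044437 and 26058968 and another of 3 within 1.01 kb, from 26285515 to 26286523. The first of these began 10.1 kb after the run of 5, just over the limit of 10 kb. Other limits were not tried, so the run lengths depend on this one. The second dense part held a pair 774 bp apart at 27805939 and 27806713 and a pair at 27855088 and 27860080. Of the 22 summits of the dense parts 15 (68.2%) belonged to a run of at least 2, close to the 72.8% of all chromosome 6 summits, while in the stretch between them it was 4 of 19 (21.1%).

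A lower share of summits reached a score of 5 in the span than outside it on chromosome 6, with intervals that overlap. The score is the authors' −log10 p or q value for each summit, and it is used here only to describe and rank summits within the parental list. None of the 41 summits of the span reached 10. With 3 counts as the limit for a count of 0, this allows a share of up to 7.32%, against 6.27% of the whole list. At that share 2.57 of the 41 would have reached 10, so a lack of high summits was not detectable with this number. At least 5 was reached by 6 of 41 (14.6%, exact Clopper-Pearson interval 5.57 to 29.17). On chromosome 6 outside the span it was 779 of 2565 (30.4%, 28.6 to 32.2). In the 5 Mb on each side it was 68 of 251 (27.1%, 21.7 to 33.0). On the short arm outside the span it was 539 of 1720 (31.3%, 29.15 to 33.6). The interval of the span overlaps each of these. By part it was 3 of 22 in the dense parts (13.6%, 2.91 to 34.9) and 3 of 19 between them (15.8%, 3.38 to 39.6), so the parts did not differ beyond counting error. The median was 3.79 in the dense parts, in the stretch between them, on chromosome 6 outside the span and over the whole list, a value that 10 summits of the span and 5492 of the list shared exactly. Above that median lay 15 of 41 (36.6%), against 46.5% of the list, and 5 of 41 (12.2%) ranked in the highest 25% of the list. No interval was computed for these shares, so they describe the span only.

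**Figure D3:**
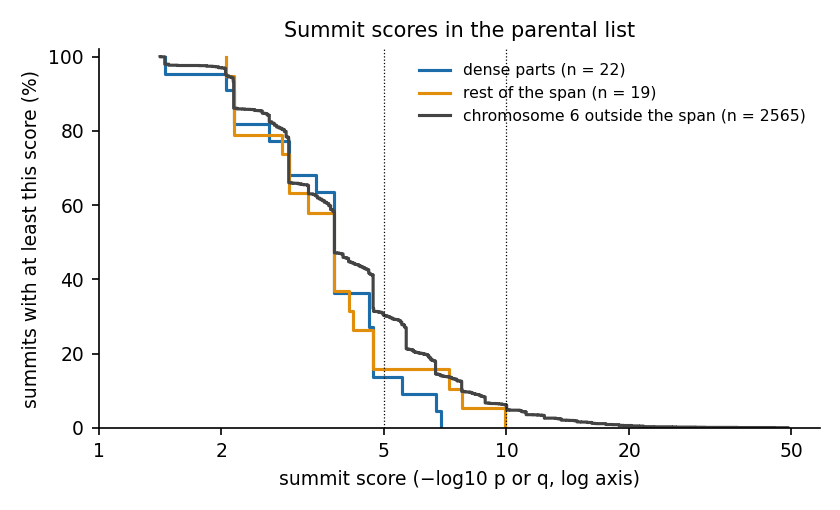
Lines give the percentage of parental summits with at least the score on the log axis (−log10 p or q), for the dense histone parts, the stretch between them and chromosome 6 outside the span; dotted lines mark 5 and 10. The lines run together up to about the shared median of 3.79, and at 5 the dense parts (13.6%) and the stretch between them (15.8%) lie below the chromosome (30.4%).

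The highest summit of the first dense part was at 26087962, with a score of 6.90 and rank 6562 in the parental list. It stood alone, 29.0 kb and 36.7 kb from its neighbours. Its gene was not determined, and by gene order this part also holds HFE, which is not a histone gene. The summits at 26025458 (score 6.70) and 26272642 (score 5.54) followed, and these 3 were the only ones of the dense parts above 5. Next came 26021974, 26044437 and 26286242, all with a score of 4.71. The 10 highest were completed by 26020986, 26034338, 26054026 and 26156923, all with 3.79, a value shared by 26200055 and 26285515 as well. The lowest was at 26172459, with a score of 1.45, close to the lowest of the list (1.31).

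The 5 summits of the second dense part had scores of 4.62 at 27805939, 4.60 at 27855088, 2.62 at 27806713, 2.14 at 27860080 and 2.05 at 27833218. Their median was 2.62 and none reached 5 (0%, Clopper-Pearson interval 0 to 52.2). In the first dense part 3 of 17 reached 5 (17.65%, 3.80 to 43.4). The shares did not differ beyond counting error.

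The highest summit of the span lay in neither dense part. It was at 26987757, with a score of 9.92 and rank 2888, between an empty stretch of 323.6 kb on one side and one of 113.3 kb on the other. The summits at 26522458 (score 7.77) and 27356879 (score 7.23) followed. The first of these formed the run with the highest scores, together with the summit at 26520807 (score 4.71). The others among the 10 highest were 27101687 (4.71), 26458422 (4.195), 26500941 (4.10) and, all with 3.79, 26570458, 26597488 and 26664143. A full hg19 annotation was not used here, so these summits are given without a gene.

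Start sites taken as hg19 were at hand for 3 histone genes of the cluster, all coding for the core histone H4. Their source states no build, and the distances below rest on that choice. HIST1H4B (H4C2) is a single exon of 357 bp on the minus strand, from 26027124 to 26027480. A parental summit with a score of 2.93 lay inside it, at 26027279, which is 201 bp downstream of the start. HIST1H4H (H4C8), 374 bp on the minus strand from 26285354 to 26285727, had 3 parental summits within 1 kb. They lay 212 bp downstream (26285515, score 3.79), 515 bp upstream (26286242, score 4.71) and 796 bp upstream (26286523, score 2.93) of its start.

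HIST1H4C (H4C3), 390 bp on the plus strand from 26104176 to 26104565, had no summit near it. Its nearest parental summits were the one at 26087962, 16.2 kb upstream (score 6.90), and the one at 26124682, 20.5 kb downstream (score 3.42). Thus 2 of these 3 histone genes had a parental summit within 1 kb of the start (66.7%, Clopper-Pearson interval 9.43 to 99.2), and 50.7% of the 280 coding genes in the same transcript sample had one. With 3 genes the share cannot be told from that background. The knockout summit nearest to any of the 3 starts was 4.24 Mb away.

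**Figure D4:**
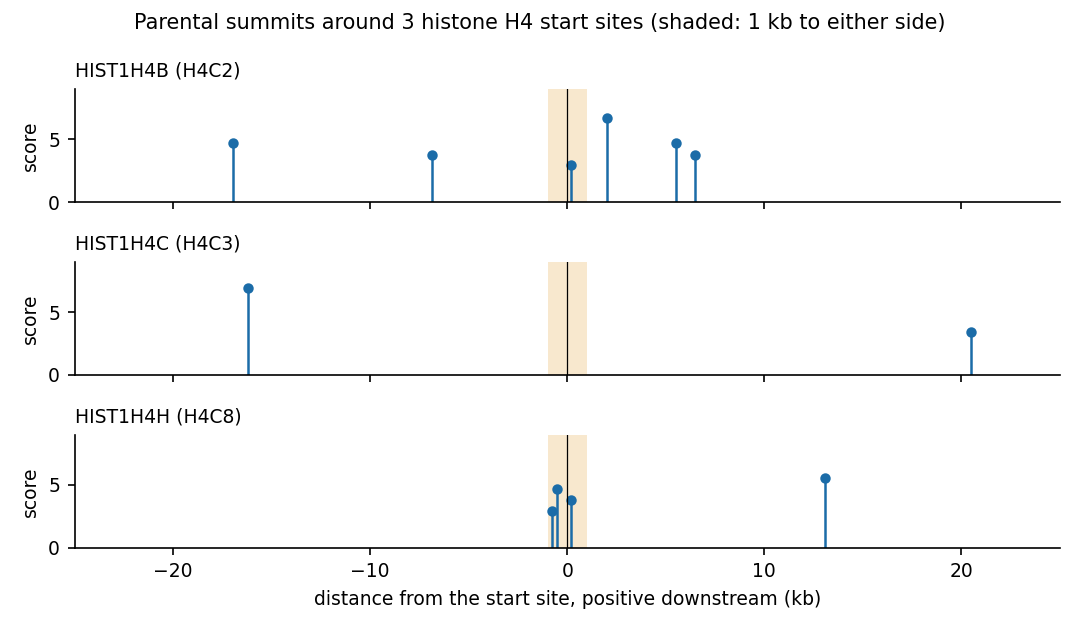
Points and stems give the scores (−log10 p or q) of parental summits by distance in kb from the start sites of HIST1H4B, HIST1H4C and HIST1H4H, positive downstream, with 1 kb to either side shaded. HIST1H4B has 1 summit and HIST1H4H 3 in the shaded part, and the nearest summit to HIST1H4C is 16.2 kb away.

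Of the factors that act on histone genes, HINFP, a zinc finger protein that activates H4 gene transcription, was the one with a start in the same sample. A parental summit with a score of 4.71 lay 621 bp upstream of that start, at 118991669 of chromosome 11. Of the 280 coding genes in that sample 50.7% had one within 1 kb, so 1 gene cannot be told from that background. The nearest knockout summit was 6.90 Mb away, in a list of only 385. NPAT, CASP8AP2, SLBP, ZNF473, LSM10, LSM11 and the histone clusters of chromosome 1 were not analysed here.

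The knockout list held no summit in the span. With 3 counts as the limit, a count of 0 allows up to 1.60 knockout summits per Mb (exact Poisson upper bound 1.97). The knockout list held 17 summits on chromosome 6, or 0.0993 per Mb. At that density the span would hold 0.186. Likewise 0 of 41 parental summits of the span had a knockout summit within 200 bp, which allows up to 7.32%, against 0.636% of the whole parental list, a share at which 0.261 of the 41 would have one. Of the 43044 parental summits that scored below 10, as all of the span did, 0.272% had one. So the empty knockout list in the histone cluster cannot be told from the level over the list. The nearest knockout summits were at 12492459 (score 5.94), 13.5 Mb before the span, and at 30525231 (score 4.55), 2.65 Mb after it.

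Histone genes of the cluster shared promoter letters by class. Of the 53 histone coding genes from H1-1 to H2BC17, 48 had a promoter in the RefSeq table, which runs from 250 bases before to 50 after each start. CCAAT on either strand was present for 6 of 6 genes of H1, 10 of 10 of H2A, 14 of 14 of H2B and 8 of 8 of H3 but for 3 of 10 of H4, against 42.1% of 15843 coding genes and 39.7% of all 27305 genes in the table. TATAAA was present for 32 of 48 histone genes (66.7%), from 3 of 6 in H1 to 6 of 8 in H3, against 12.4% of coding genes and 14.0% of all genes. The octamer was present for 8 of 10 genes of H2A, 11 of 14 of H2B and 1 of 8 of H3, and for none of H1 or H4, against 2.22% of coding genes and 2.19% of all genes. Divergent H2A and H2B genes can share a window, and the H3 gene with an octamer, H3C4, has a listed start in common with H2AC7, so these genes are not independent. The median GC content was 42.3% for the histone promoters and 62.3% for coding genes. Of the genes shown with a summit at the start, H4C2 had a TATAAA in the 200 bases before it. H4C8 had none of the 3 motifs there as exact letters. The motifs describe the letters in these windows and were not set against ZMYND8 binding.

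**Figure D5:**
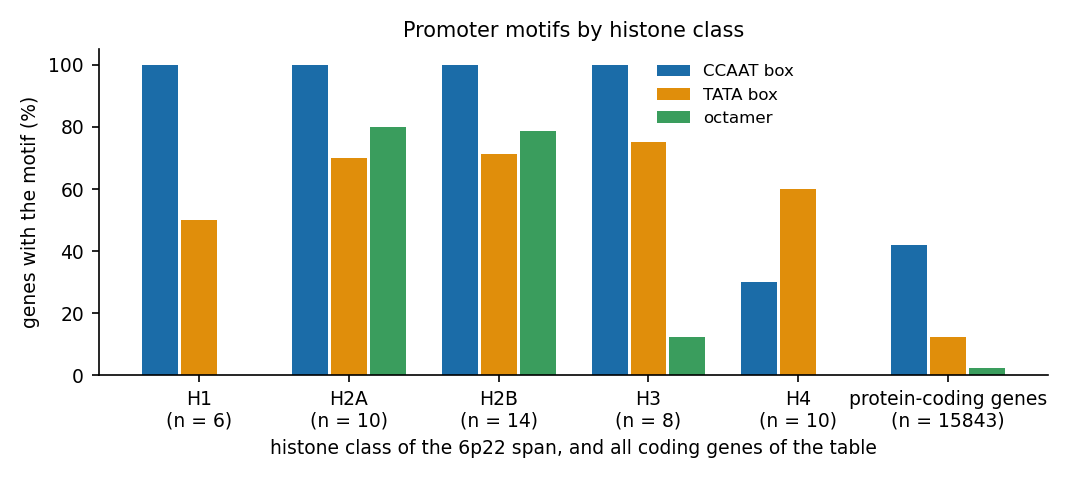
Bars give the percentage of genes whose promoter window holds CCAAT or TATAAA or the octamer on either strand, for the 5 histone classes of the cluster and for all coding genes of the RefSeq table, with the number of genes. CCAAT reaches 100% in H1, H2A, H2B and H3 and 30% in H4, and the octamer is common only in H2A (80.0%) and H2B (78.6%) among these classes.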

How the data were processed

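ZMYND8 ChIP-seq of MDA-MB-231 mammospheres comprised 1 parental and 1 knockout library, grouped by the genotype in the labels. The labels give no replicate number, the names of both deposited lists carry replicate number 2, and whether other replicates exist is not given in the sources used here. Chromatin was sonicated to short fragments, per the labels' protocols. MACS2 2.0.10, Picard 1.127, Bowtie2 2.2.3, FastQC 0.11.2 and hg19 are listed, without roles or settings, per the submitters' processing notes. How many reads there were, which control was used and how peaks were thresholded is not given in the sources used here. A deposited list held 1 position and 1 score per summit, called per library; the score is a −log10 p or q value by the authors, and which of these is not stated. Scores and list lengths move with depth, so they were not compared between genotypes.

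Summits were counted in the span, its dense parts, bins and tiles, with exact Poisson, conditional and Clopper-Pearson intervals at 95%, and 3 counts as the limit for a count of 0. Sharing meant 200 bp. The named summits are the 10 highest of each part and the longest and highest-scoring runs with gaps of at most 10 kb. Every histone gene with a start taken as hg19 is named. The members, regions, gene lists and this rule were chosen with earlier results of these data known; counts per gene were added after the files were seen. Lengths came from GenomeInfoDb 1.38.1, bands from circlize 0.4.16, and start sites from the example transcripts of pyranges 0.1.4. That set states no build. Of its 500 transcripts, 485 lie on chromosomes 1 to 22, X and Y and within their hg19 lengths, and these were used as hg19. Lying within those lengths does not establish the build. Gene order and promoter sequences are RefSeq's, on GRCh38.p14. The counting was tested on simulated lists. Software was Python 3.11.15 with scipy 1.17.1, numpy 2.4.6 and pandas 2.3.3, and plots were drawn in matplotlib 3.10.9.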

Additional observations from a re-analysis of the deposited data

How the results depend on the processing

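No paired analysis was possible because 1 library of each genotype was analysed here. An alternative value inside the 95% interval of the reported one counted as holding. Of 38 alternatives 25 held, 9 moved and 4 gave a ratio on the other side of 1, each with an interval that includes 1. The 25 include the alternatives on the knockout list, which could only hold. They changed only the sharing distance (100, 500 or 1000 bp), and the nearest knockout summit was 2.65 Mb from the span. The windows of 500 bp and 2 kb around the start sites could not change the count of 2 of 3 genes either. The nearest summits lay 201 bp, 212 bp and 16.2 kb from those starts. The ratio of the whole span to the rest of chromosome 6 (1.45) was 0.697 (0.255 to 1.52) for scores of at least 5. It was 0.754 against the short arm and 0.874 against the 5 Mb on each side. The ratio of the dense parts to the rest of chromosome 6 (3.63) was 1.63, 1.89 and 2.19 under these settings, and with scores of at least 5 it was 0.823 against the short arm and 1.10 against the 5 Mb on each side. With scores of at least 5 the density of the dense parts was 7.5 per Mb, from 3 summits, and the ratio per coding gene 0.0771. The share of bins with a summit was 21.2% for bins of 5 kb and 57.1% for 20 kb, and 14.6% of the span's summits reached a score of 5. These changes and the fall of the density to 7.5 per Mb follow from the settings. For the other moves the cause was not tested. A minimum score of 10 left no summit in the span and gave no ratio. The 2 alternatives per coding gene and the 2 that join a score minimum with another region were added after seeing the data. Unknown read depth limits every statement on the knockout list.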

Other observations

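The span crosses the border of bands 6p22.2 and 6p22.1, whose densities of parental summits were close to that of the next band toward the telomere and below those of the next bands toward the centromere. Band 6p22.2, which holds the first dense part, had 17.8 summits per Mb, and 6p22.1, which holds the second, had 17.6. They ranked 17 and 18 of 48 bands, whose median was 8.67 per Mb. The adjoining band toward the telomere, 6p22.3, had 19.9 per Mb and rank 14. The bands that follow toward the centromere, 6p21.33, 6p21.32 and 6p21.31, had 72.4, 35.7 and 79.4 per Mb. Neither 6p22.2 nor 6p22.1 held a knockout summit. The knockout list held 17 summits on the whole chromosome (0.0993 per Mb), and most of the 48 bands had none. Chromosome 6 as a whole had 15.2 parental summits per Mb, the median over 23 chromosomes.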
